A study of Mus musculus with 16 samples.

Results

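The response to c-di-GMP in bone marrow-derived dendritic cells (BMDCs) of Irf1-/- mice was described across genes by comparing untreated Irf1-/- BMDCs (NT) with Irf1-/- BMDCs stimulated with c-di-GMP (CDG). These were 4 of the 16 samples of the series, 2 NT and 2 CDG, and all of them are labelled as Irf1 knockout. Bone marrow cells were grown to day 6 in 10 ng/ml GM-CSF and 10 ng/ml IL-4 in every group and then stimulated for 18 h. The labels give the c-di-GMP dose as 25 ug/ml, and another dose is stated in the text of the study. The groups set beside them were WT (C57BL/6) NT and CDG, with 2 samples each, and Irf3/7-/- NT and CDG, with 2 samples each. The Irf1-/- mice carry the deletion in every cell, so the bone marrow, the growing culture and any other cell type in it lacked the factor as well. The methods name more than 1 source for these mice, and the labels do not say whether the 2 samples of a condition came from separate mice.

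c-di-GMP is a signalling molecule of bacteria that enters the cytosol and binds STING, the product of Tmem173. STING recruits the kinase TBK1, which phosphorylates interferon regulatory factors (IRFs) and starts the transcription of interferon-β. Secreted interferon acts back through its receptor and a complex of transcription factors that includes STAT2 and IRF9 on a large set of antiviral genes, many of which carry the interferon-stimulated response element (ISRE) in their promoters. IRF1 binds a closely related element, is itself induced by interferons, and is known for its part in the genes switched on by interferon-γ, such as the guanylate-binding proteins. The comparison asks what c-di-GMP still induced or repressed when IRF1 was missing.

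The data hold 1 FPKM (fragments scaled to transcript length and to the mapped fragments of the library) per gene and condition, with a confidence interval, since the replicates had been combined. No spread between replicates could be computed, and no p-value over replicates is given. The q values given for differences of response rest on the widths of these intervals, read as 2 SD to each side, a level that the sources do not state. Genes with at least 1 FPKM in either condition were tested. Calls required separate NT and CDG intervals and a change beyond 2-fold on the log2(FPKM + 0.1) scale. The precision was that of the intervals: among the 5983 genes with at least 10 FPKM in Irf1-/- CDG, the median distance from the FPKM to a bound was 25.6% of the FPKM. The number of reads behind a value is unknown. Because FPKM is scaled to transcript length, levels can be compared between genes. A gene below 1 FPKM in NT could enter only if it rose, and the counts within gene lists are therefore descriptions.

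Irf1 (chr11:53770014-53778374, GRCm38, plus strand, protein coding) was not at 0 in the Irf1-/- samples. It stood at 25.9 FPKM in NT (interval 19.0 to 33.3) and at 116 FPKM in CDG (82.8 to 149), against 149 FPKM (113 to 185) and 245 FPKM (176 to 314) in WT BMDCs. The level was lower than in WT in both conditions, with no overlap of the intervals. A value for the whole gene sums all its exons, so it does not check the deleted part. Tmem173, which encodes STING, stood at 77.0 FPKM in Irf1-/- NT (58.0 to 95.2) and 97.1 FPKM in CDG (73.4 to 120), and its WT intervals overlapped both.

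The promoters of the 12 genes with the largest rises were searched for letters of the ISRE kind. Of these genes, 7 had a window with a match and 5 had none (Oasl1, Ifit2, Irf7, Thbs4 and Ccl8), among them the gene with the largest rise. The windows of Ifi205 and Ifit3, the first genes with a match in the order of their rise, are shown because they were picked for holding it. They are RefSeq windows from 250 bases before to 50 bases after the transcription start in GRCm38.p6, printed 5′ to 3′ on the strand of the gene, and capitals mark matches to the ISRE-like letters GAAANNGAA on either strand. Ifi205, a cytosolic DNA sensor gene of the HIN-200 family, has its window at chr1:174031706-174032005 on the minus strand. Ifit3, an antiviral gene of the IFIT family, which acts on viral RNA, has its window at chr19:34583279-34583578 on the plus strand.
Ifi205: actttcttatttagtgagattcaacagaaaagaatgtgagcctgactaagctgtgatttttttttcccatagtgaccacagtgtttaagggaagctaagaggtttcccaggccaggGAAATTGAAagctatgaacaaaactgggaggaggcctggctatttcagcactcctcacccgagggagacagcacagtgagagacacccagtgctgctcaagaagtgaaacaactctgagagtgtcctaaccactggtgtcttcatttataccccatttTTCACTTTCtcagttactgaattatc
Ifit3: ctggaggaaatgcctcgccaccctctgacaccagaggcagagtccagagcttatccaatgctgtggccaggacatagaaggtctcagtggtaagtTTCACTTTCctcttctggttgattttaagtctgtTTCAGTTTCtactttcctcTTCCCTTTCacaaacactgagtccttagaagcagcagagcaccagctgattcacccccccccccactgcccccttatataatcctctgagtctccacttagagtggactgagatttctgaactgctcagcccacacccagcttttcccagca
The Ifi205 window holds 2 matches, and the Ifit3 window holds 3, all of them upstream of the start on the opposite strand. Of all 32851 promoter windows in the table, 8.56% hold the letters, and by gene 9.76% of 27025 have a window with a match. The 12 genes were not compared with these shares by a test. A match is a description of the sequence and not a binding site.

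Without IRF1, c-di-GMP raised 1080 of 11164 genes tested (9.67%) and lowered 872 (7.81%). The counts within the gene lists below can be read against these shares. In WT BMDCs, 1175 of 11201 genes rose (10.5%) and 1116 fell (9.96%). Among the genes that rose in Irf1-/- BMDCs, 420 rose more than 4-fold and 102 more than 16-fold, against 399 and 84 in WT. Of the genes that fell, 169 fell more than 4-fold and 9 more than 16-fold. The median change of all genes tested was 0.0016 on the log2 scale. A further 78 genes were more than 2-fold higher and 124 more than 2-fold lower in CDG with intervals that overlapped, and these were not called. At the threshold, Mcmbp (log2 change 1.001) was inside and Gramd1b (0.999) outside, with Trim14 and Amdhd2 at 1.0 on either side of it. Among the falls, P2ry6 (-1.001) was inside and Bin2 and Clec4n (both -0.999) outside.

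**Figure D1:**
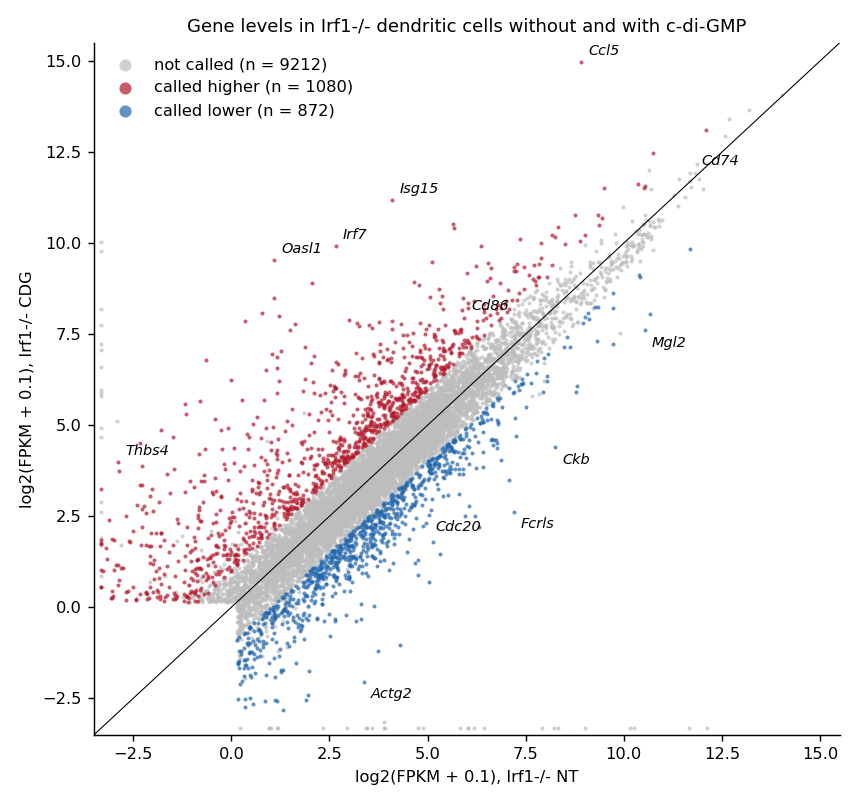
Levels of the 11164 genes tested in Irf1-/- BMDCs as log2(FPKM + 0.1), NT on the x axis and CDG on the y axis. Red points are the 1080 genes called higher, blue points the 872 called lower, grey points were not called, and the line marks equal levels. Isg15, Irf7 and Oasl1 lie far above the line and Actg2, Ckb and Fcrls below it.

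The largest rises were in genes of the type I interferon response. Oasl1, an oligoadenylate synthetase-like gene that limits IRF7 translation, went from 2.02 FPKM in NT (interval 1.37 to 2.68) to 738 FPKM in CDG (559 to 918), which is 8.44 as a log2 change. Ifi205 went from 1.17 FPKM (0.740 to 1.60) to 232 FPKM (175 to 288), which is 7.51 as a log2 change. Isg15, a ubiquitin-like modifier, went from 17 FPKM (10.8 to 21.2) to 2308 FPKM (1544 to 2848), which is 7.08 as a log2 change. Ifit3 (log2 change 7.43), Rsad2 (7.41), Ifit2 (7.28) and Ifit1 (6.8) belong to the same group of antiviral effectors. Irf7, the IRF that amplifies interferon-α production, went from 6.22 FPKM (4.40 to 8.03) to 969 FPKM (698 to 1241), which is 7.26 as a log2 change. The remaining genes among the 12 largest rises were the chemokine genes Cxcl10 (6.86) and Ccl8 (6.85), the matrix gene Thbs4 (6.86) and Gm14446 (6.77). Exons of Irf7 overlap those of Phrf1 and exons of Cxcl10 those of Art3, and the use of strand in the counting for this table is not stated, so a part of these reads may belong to the neighbour.

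The largest falls were in genes of other kinds. Actg2, a smooth muscle actin gene, went from 10.3 FPKM (7.68 to 12.9) to 0.143 FPKM (0.0302 to 0.272), which is -5.42 as a log2 change. Fcrls, an Fc receptor-like gene of resident macrophages and microglia, went from 146 FPKM (112 to 179) to 6.06 FPKM (4.53 to 7.57), which is -4.57 as a log2 change. Ckb, the brain-type creatine kinase, went from 302 FPKM (224 to 378) to 20.9 FPKM (15.6 to 26.0), which is -3.85 as a log2 change. Alox15, a lipoxygenase gene induced by IL-4, went from 73.2 FPKM (55.8 to 90.5) to 5.61 FPKM (4.18 to 7.02), which is -3.68 as a log2 change. The nuclear corepressor gene Hr (-5.34), the inhibitor of E proteins Id3 (-4.93), Rufy4 (-4.34), the asialoglycoprotein receptor gene Asgr2 (-4.09), Gm19510 (-3.88), the tight junction gene Cldn1 (-3.87), Haao (-3.61) and the adaptor gene Sla (-3.57) made up the rest of the 12. All 12 also fell in WT BMDCs.

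Some interferon genes were induced without IRF1, and all 3 that reached 1 FPKM of the 18 in the table rose. Ifnb1 and Ifna4 passed this filter only through CDG, so they could only rise. Without the filter on low FPKM, 5 of 13 genes rose and 0 fell, with a median log2 change of 1.03. Ifnb1 stood at 0.0258 FPKM in Irf1-/- NT (0 to 0.103) and 3.53 FPKM in CDG (2.17 to 4.85), and WT BMDCs reached 2.93 FPKM in CDG (1.76 to 4.08). Ifna4 was listed at 0 in NT and stood at 9.37 FPKM in CDG (5.74 to 11.8), above the 3.53 FPKM of WT CDG (1.91 to 5.06). The other interferon-α genes stayed below 1 FPKM in both conditions, and near-identical members of this family can share reads. Ifng, the gene of interferon-γ, rose from 1.26 FPKM (0.659 to 1.84) to 25.5 FPKM (17.4 to 31.4), but its level was far below the 34.6 FPKM of WT NT (23.4 to 45.0) and the 299 FPKM of WT CDG (205 to 367). Ifng is known as a product of NK and T cells. The summed FPKM of 8 NK cell markers was 17.9 in Irf1-/- NT and 28.9 in Irf1-/- CDG, against 687 and 677 in WT, with Ncr1 and Klra8 at 0 and Gzmb highest at 10.0 and 18.7 FPKM. The summed FPKM of 8 T cell markers was 6.48 and 10.4 against 74.5 and 53.5 in WT, and Lck alone made up 6.16 FPKM in Irf1-/- CDG. In a culture measured in bulk, fewer cells of a type and less RNA per cell cannot be told apart. These markers moved with the Ifng level between the genotypes, and their part in it was not tested.

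The receptors and signal carriers of interferon changed less than their targets. Of 23 genes of the receptor and JAK-STAT list that were tested, 9 rose and 0 fell in Irf1-/- BMDCs, with a median log2 change of 0.73. Stat2 rose by 2.76 and Irf9 by 1.25 on the log2 scale. Usp18 (4.27) and Socs3 (2.99), which restrain cytokine receptor signalling, also rose, and the receptor genes Ifnar1 (0.28) and Ifngr1 (-0.89) were not called. Among 8 IRF genes tested, Irf7, Irf8 (17 to 201 FPKM, log2 change 3.55), Irf9 and the Irf1 transcript itself (2.15) rose, and Irf3 (-0.10), Irf2 (0.02) and Irf5 (0.15) were not called.

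The antiviral effectors were induced nearly throughout. Of 39 genes tested, 34 rose and 0 fell, with a median log2 change of 4.27 in Irf1-/- and 3.01 in WT BMDCs. Oasl2 went from 2.97 to 221 FPKM, Ifitm3, a membrane protein that blocks virus entry, from 50.3 to 1461 FPKM, and Mx1 from 20.7 to 138 FPKM. Rtp4 (log2 change 4.99), Cmpk2 (5.71), Oas3 (5.26) and Bst2 (3.56) rose as well, and Apobec3 (0.66) and Ifitm1 (-0.08) were not called. Values of the close paralogs Oas1a, Oas1b and Oas1g, of Slfn8 and Slfn9 and of Ifitm1 to Ifitm3 can share reads. The response was larger than in WT by the interval of the difference for 19 of the 39 genes, 14 of them also at q under 0.05 (q is a Benjamini-Hochberg adjusted value computed from the intervals), and smaller for 0. A larger response did not mean a higher treated level. Over the 39 genes, the median level in Irf1-/- relative to WT was -0.96 on the log2 scale in NT and -0.23 in CDG. Rsad2 showed no larger response, with 362 FPKM in Irf1-/- CDG (269 to 453) and 1245 FPKM in WT CDG (899 to 1588), and its difference of -0.83 was not called.

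Nucleic acid sensors rose with the effectors. Of 23 tested, 14 rose and 0 fell, with a median log2 change of 2.47 against 1.24 in WT. Gene by gene, the median difference of response was only 0.32. The response was larger than in WT for 7 of the 23, 6 of them at q under 0.05, and smaller for 0. Their median level relative to WT was -0.72 on the log2 scale in NT and -0.06 in CDG over all 23. The HIN-200 genes Ifi204 (2.70 to 196 FPKM), Mnda (0.902 to 75.8 FPKM) and Ifi203 (3.54 to 76.2 FPKM) and the RNA helicase genes Ifih1 (4.13 to 73.1 FPKM), Ddx58 (5.11 to 59.2 FPKM) and Dhx58 (6.47 to 103 FPKM) were among them. Zbp1, a sensor of Z-form nucleic acid, went from 20.0 to 219 FPKM. Tmem173 (log2 change 0.33), the cGAMP synthase gene Mb21d1 (0.72) and Aim2 (0.33) were not called. HIN-200 genes are similar in sequence, and their reads can be shared.

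The guanylate-binding proteins (GBPs) and immunity-related GTPases (IRGs), which attack the vacuoles of intracellular bacteria and parasites, showed low levels at rest and large changes. All 16 of the 18 list members that were tested rose, with a median log2 change of 3.60. Over all 18 members, without the filter on low FPKM, the median was 3.46 in Irf1-/- and 1.51 in WT BMDCs. The response was larger than in WT for 12 of the 18 and smaller for 2 (Gbp10 and Gbp11), all of them also at q under 0.05. Gbp10 and Gbp11 stayed below 1 FPKM in Irf1-/- BMDCs and were not tested there. Gbp2 went from 39.7 FPKM (30.7 to 48.6) to 325 FPKM (248 to 402), while WT Gbp2 went from 382 FPKM (291 to 473) to 1036 FPKM (772 to 1298). The treated Irf1-/- level thus overlapped the untreated WT level. Ifi47 went from 4.21 FPKM (2.98 to 5.44) to 120 FPKM (84.5 to 155), against 102 FPKM (71.0 to 132) and 256 FPKM (180 to 332) in WT. Iigp1 went from 0.0896 FPKM (0.0134 to 0.171) to 6.89 FPKM (5.22 to 8.56), against 45.9 FPKM (34.7 to 57.2) and 161 FPKM (123 to 200). Across the list, the median level in Irf1-/- relative to WT was -3.34 on the log2 scale in NT and -1.74 in CDG. Irgm1 (16.9 to 230 FPKM) reached an interval of 176 to 283 FPKM in CDG, which overlapped that of WT at 304 FPKM (233 to 375). Gbp5 (9.05 to 224 FPKM) did not overlap the WT CDG level of 398 FPKM (302 to 493) but was less than 2-fold below it. Tgtp1 and Tgtp2, Gbp6 and Gbp10, the overlapping genes Gbp4, Gbp8 and Gbp9, Igtp and Irgm2, and Ifi47 and Olfr56 can share reads. Most of these genes are known targets of interferon-γ, and the Ifng and NK cell marker values given above moved with their resting levels, a relation that was not tested.

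**Figure D2:**
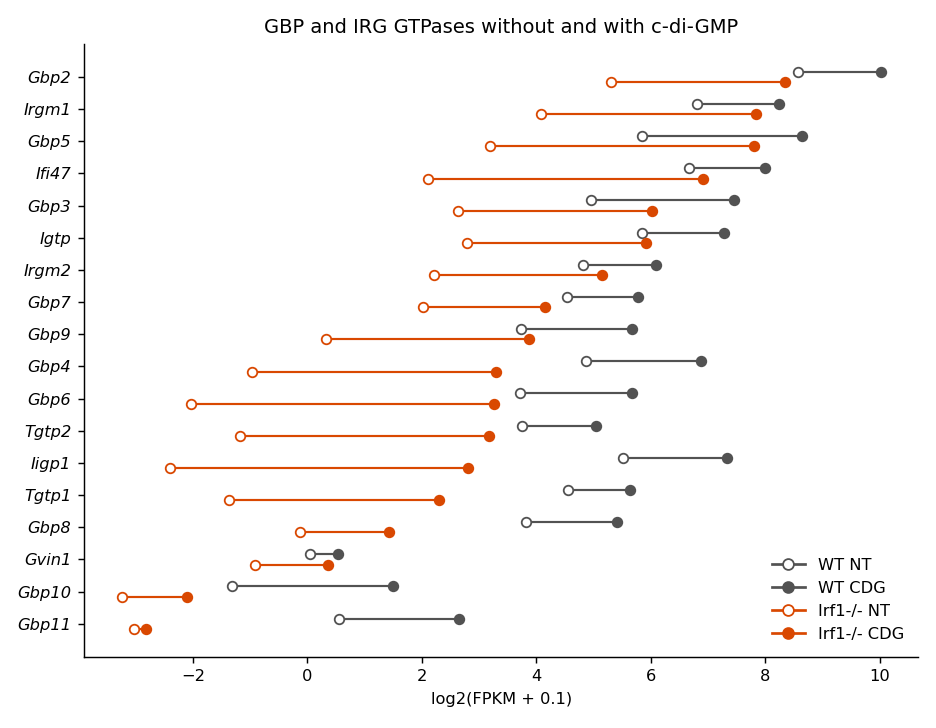
Levels of the 18 GBP and IRG genes as log2(FPKM + 0.1) on the x axis. Open circles are NT, filled circles CDG, grey WT and orange Irf1-/-, each a pooled value of 2 samples. The Irf1-/- NT levels lie to the left of the WT NT levels, by a median of 3.34, and most Irf1-/- CDG levels stay left of WT CDG.

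Genes of MHC class I presentation rose and those of MHC class II did not. Of 22 class I genes tested, 16 rose and 0 fell, with a median log2 change of 1.72 (WT 1.10). The response was larger than in WT for 3 of the 22, 1 of them at q under 0.05, and smaller for 0. Over all 22, the median level relative to WT was -1.05 on the log2 scale in NT and -0.49 in CDG. H2-K1 went from 321 to 1384 FPKM, B2m, the light chain, from 1720 FPKM (1068 to 1989) to 5719 FPKM (3528 to 6965), Tap1, a peptide transporter gene, from 57.7 to 190 FPKM, and Nlrc5, the transactivator of this class, from 9.33 to 54.6 FPKM. The endoplasmic reticulum chaperone genes Calr (-0.62) and Pdia3 (-0.74) were not called. The H2-Q genes are near-identical and can share reads. Of 13 class II genes tested, 1 rose and 3 fell, against 9.67% and 7.81% of all genes tested. H2-Ab1 (278 and 331 FPKM), H2-Aa (364 and 462 FPKM) and Cd74 (3565 and 3918 FPKM) were not called. H2-DMa, whose product loads peptide on class II, fell from 149 FPKM (109 to 187) to 36.5 FPKM (27.0 to 45.6), against 170 and 108 FPKM in WT, and the interval of the difference of response, -2.12 to -0.63, excluded 0. Exons of H2-DMa overlap those of Brd2. Ciita, the class II transactivator, was called higher by a log2 change just past the threshold and stood at 0.92 with 1 FPKM added.

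Of 14 costimulatory and checkpoint ligands tested, 9 rose and 1 fell, with a median log2 change of 2.04 in Irf1-/- and 1.94 in WT BMDCs, and 0 of them showed a called difference of response, where 2.55% of all genes had a larger and 2.48% a smaller one, so that a list of this length would hold few. Cd40 went from 27.3 FPKM (20.4 to 34.2) to 457 FPKM (340 to 576), and WT reached 432 FPKM (325 to 540). Cd86 went from 60.6 FPKM (46.6 to 74.6) to 248 FPKM (190 to 305), and WT reached 255 FPKM (196 to 314). The difference of the Cd86 responses was 0.20 with an interval of -0.47 to 0.87. Cd80 (log2 change 1.79), Cd274 (2.19), Tnfsf4 (2.06) and Tnfsf9 (2.70) rose. Of 15 maturation genes tested, 7 rose and 1 fell. Ccr7, which guides dendritic cells to lymph nodes, went from 235 FPKM (175 to 294) to 1026 FPKM (756 to 1295), Fscn1 from 154 to 681 FPKM and Marcksl1 from 164 to 1112 FPKM. Tmem176a, whose exons overlap Tmem176b, was the member that fell (-1.10). Of these 15 genes, 0 had a called difference from WT, which is near the same shares.

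Chemokines diverged in their response. Of 25 tested, 10 rose and 3 fell. The response was larger than in WT for 7 of the 25 and smaller for 2, with 4 and 2 at q under 0.05. Ccl5, a ligand for effector T cells, reached 31790 FPKM (18124 to 34354) from 478 FPKM (271 to 487), the highest level among the chemokines tested, and Ccl2 went from 289 to 1199 FPKM. Cxcl10 reached 483 FPKM (333 to 630) from 4.06 FPKM (2.57 to 5.53), below the WT CDG level of 1037 FPKM (710 to 1332). The response of Cxcl10 was nevertheless larger than in WT, by 1.44 (interval 0.52 to 2.36), called by the interval and not at q under 0.05. Cxcl9, another interferon-γ target, went from 0.947 to 15.4 FPKM, below the 52.2 FPKM of WT CDG. The neutrophil attractants Cxcl2 (17.3 and 12.3 FPKM) and Cxcl3 (23.7 and 18.1 FPKM) were not called in Irf1-/- and rose in WT, from 6.79 to 24.6 and from 15.9 to 82.4 FPKM. The differences of response were -2.34 for Cxcl2 (interval -3.23 to -1.44) and -2.76 for Cxcl3 (-3.63 to -1.88). Ccl1 (-3.54), Ccl24 (-1.08) and Cxcl14 (-1.56) fell. The status of Ccl22 was not OK, and it was not tested. Among 10 chemokine receptors, Ccr7, Ccrl2, Cxcr5 and Xcr1 rose, and Ccr2 and Cxcr2 fell. Ccr2, the receptor of monocytes, fell from 247 FPKM (177 to 315) to 60.5 FPKM (43.1 to 77.6), against a fall from 135 to 6.62 FPKM in WT.

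Among the cytokines, the IL-1 genes Il1a and Il1b were not called in Irf1-/- and rose in WT. Il1b stood at 120 FPKM in NT (92.7 to 147) and 113 FPKM in CDG (86.8 to 139), while WT went from 154 FPKM (119 to 189) to 611 FPKM (469 to 753). Il1a stood at 97.4 FPKM (72.6 to 122) and 146 FPKM (109 to 183), against 92.7 FPKM (71.0 to 114) and 390 FPKM (288 to 491). The differences of response were -2.08 for Il1b (interval -2.74 to -1.42) and -1.48 for Il1a (-2.21 to -0.76), and both held at q under 0.05. The NT levels of both genes overlapped between genotypes and the CDG levels did not. In the whole list of IL-1 family and pyroptosis genes, 10 of 20 tested rose and 3 fell. The response was smaller or more negative than in WT for 7 of 22 and larger for 3, with 4 and 1 at q under 0.05. Il33 went from 6.01 FPKM (4.53 to 7.49) to 67.8 FPKM (52.5 to 83.2), above WT CDG at 21.6 FPKM (16.9 to 26.4). Il1rn, the natural inhibitor of the IL-1 receptor, went from 93.0 to 694 FPKM. The inflammatory caspase genes Casp4 (8.73 to 81.1 FPKM) and Casp1 (20.4 to 68.7 FPKM) rose, and Gsdmd, the pore-forming substrate of these caspases, reached 94.4 FPKM (71.7 to 117) from 43.1 FPKM (32.8 to 53.3) and was called, with WT at 62.8 and 126 FPKM. Il18bp, an inhibitor of IL-18 whose exons overlap Numa1, reached 4.04 FPKM (2.84 to 5.28) against 113 FPKM (84.7 to 141) in WT CDG. Il36α, listed as Il1f6, stayed below 1 FPKM, and WT reached 2.37 FPKM. The IL-33 receptor gene Il1rl1 (-3.46), Il18r1 (-2.48) and Il1r1 (-1.90) fell.

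The IL-12 family and other cytokines were mostly induced. Of 22 tested, 15 rose and 0 fell. Il6 went from 13.5 FPKM (8.74 to 16.5) to 228 FPKM (152 to 273), overlapping WT CDG at 339 FPKM (228 to 410). Il23a went from 0.520 to 10.9 FPKM (8.16 to 13.5), overlapping WT CDG at 7.81 FPKM (5.74 to 9.86). Il27 (0.101 to 10.2 FPKM), Il15 (4.71 to 56.2 FPKM) and Ebi3 (29.9 to 147 FPKM) rose. Il12b, the shared subunit of IL-12 and IL-23, rose from 5.73 FPKM (4.26 to 7.19) to 49.9 FPKM (38.6 to 61.3), below the 148 FPKM (114 to 182) of WT CDG. The difference of its response was -1.88 (interval -2.58 to -1.18). In the whole list, the response was larger than in WT for 4 of 23 and smaller for 2, with 2 and 2 at q under 0.05. Il22 and Il9, which are products of lymphocytes and mast cells, were listed at 0 in NT and stood at 3.50 FPKM (2.23 to 4.76) and 3.22 FPKM (1.71 to 4.67) in CDG, against 0.317 and 0.845 FPKM in WT CDG. The summed FPKM of basophil and mast cell markers was 62.0 in NT and 92.3 in CDG, against 69.6 and 84.0 in WT. Their part in Il9 was not tested. Tnf (65.9 and 75.4 FPKM), Tgfb1 (151 and 122 FPKM) and Csf1 (76.5 and 92.2 FPKM) were not called.

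**Figure D3:**
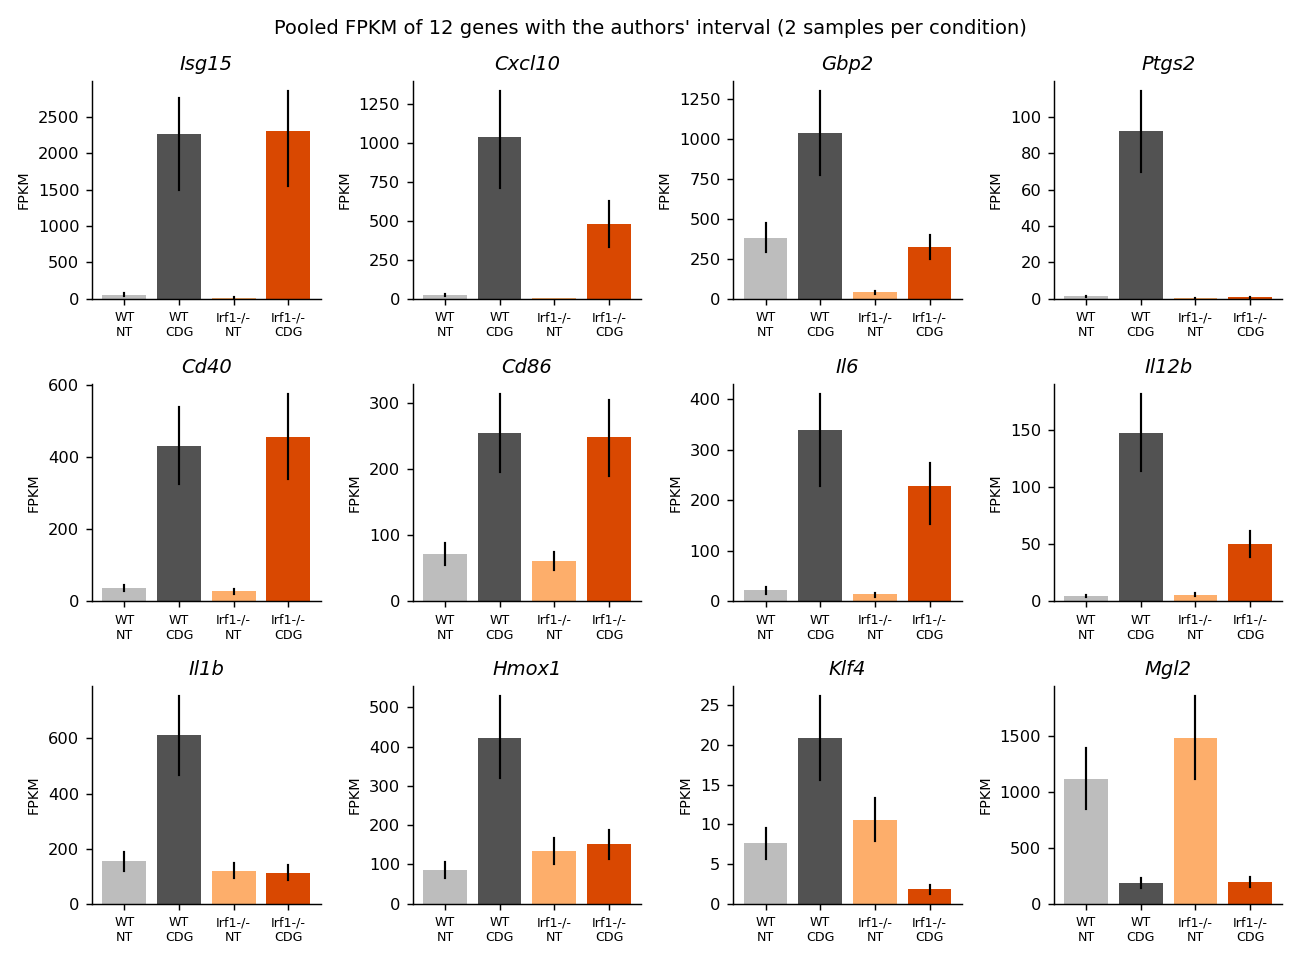
Pooled FPKM of 12 genes in WT and Irf1-/- BMDCs, NT and CDG. Bars start at 0 and lines are the authors' intervals. Isg15, Cd40, Cd86 and Il6 reached overlapping CDG levels in both genotypes, Gbp2 and Il12b rose to lower levels in Irf1-/-, Il1b and Hmox1 rose in WT only by the calls used, with both differences called, and Klf4 rose in WT and fell in Irf1-/-.

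Among eicosanoid genes, the responses of Ptgs2 and Ptges were smaller than in WT, and 5 of the 6 genes that fell in Irf1-/- also fell in WT, Cysltr1 being the other. Ptgs2, which encodes the inducible cyclooxygenase COX-2 (chr1:150100031-150108227, plus strand), stood at 0.187 FPKM in Irf1-/- NT (0.0959 to 0.278) and 0.843 FPKM in CDG (0.566 to 1.12), too low to be tested there, while WT went from 1.28 FPKM (0.883 to 1.68) to 92.1 FPKM (69.7 to 114). The difference of response was -4.35 (interval -5.17 to -3.52). Ptges, the inducible prostaglandin E synthase (chr2:30889471-30929863, minus strand), went from 0.185 FPKM (0.0872 to 0.283) to 1.15 FPKM (0.796 to 1.5), and WT from 0.470 to 20.8 FPKM (16.1 to 25.5). Its call in Irf1-/- was lost when 1 FPKM was added, at a log2 change of 0.86. The constitutive cyclooxygenase gene Ptgs1 fell from 108 FPKM (81.7 to 134) to 22.9 FPKM (17.5 to 28.3), and WT Ptgs1 fell from 96.4 to 14.6 FPKM. The thromboxane synthase gene Tbxas1 (-2.01), the leukotriene A4 hydrolase gene Lta4h (-1.27), the leukotriene receptor genes Ltb4r1 (-1.65) and Cysltr1 (-1.11) and Alox15 (-3.68) fell too. In all, 2 of 20 tested genes rose and 6 fell in Irf1-/-, against 9.67% and 7.81% of all genes tested. The genes with a response that was smaller or more negative than in WT were 3, Ptgs2, Ptges and Alox15.

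Of 13 genes of nitric oxide, arginine, itaconate and tryptophan metabolism tested, 5 rose, 1 fell and 7 were not called. Irg1, the itaconate-producing enzyme of activated macrophages, went from 50.6 FPKM (39.0 to 62.1) to 1371 FPKM (1010 to 1731), overlapping WT CDG at 1717 FPKM (1248 to 2186). Nos2, the inducible nitric oxide synthase, rose from 6.10 FPKM (4.55 to 7.65) to 65.1 FPKM (48.5 to 81.7) and stayed below the 334 FPKM (248 to 420) of WT CDG. The difference of its response of -1.06 was called by the interval and not at q under 0.05. Arg1 fell from 544 to 270 FPKM (log2 change -1.01). Ido1 stayed below 1 FPKM, against 3.36 FPKM in WT CDG. Heme oxygenase Hmox1 stood at 135 FPKM (102 to 167) and 151 FPKM (115 to 187), while WT went from 85.9 FPKM (65.8 to 106) to 423 FPKM (319 to 528). The ferritin heavy chain gene Fth1 stood at 1667 and 2864 FPKM and was not called, while WT went from 2311 to 10005 FPKM. Of 16 antioxidant genes of the NRF2 list, 2 rose in Irf1-/-, Sqstm1 (log2 change 1.29) and Prdx1 (1.22). Of 19 glycolysis genes, 1 rose (Hk3, 1.54) and 0 fell. The counts of rises in these 2 lists are near the 9.67% of all genes tested that rose. The regulator of glycolysis Pfkfb3 (11.0 and 10.5 FPKM) and the lactate exporter Slc16a3 (38.6 and 24.4 FPKM) had smaller responses than in WT, by -1.35 (interval -2.02 to -0.67) and -1.31 (-2.02 to -0.59). In the whole glycolysis list, 1 response was larger and 2 were smaller than in WT, all of them at q under 0.05. None of 31 oxidative phosphorylation genes was called in Irf1-/-, and 30 of them had negative values, with a median log2 change of -0.48 that stood at -0.51 in WT.

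The cell cycle list was the one with the most falls. Of 30 genes tested, 20 fell and 0 rose, all 30 had negative values, and the median log2 change was -1.39 in Irf1-/- and -1.63 in WT. Ccnb1 (38.5 to 9.36 FPKM), Birc5 (66.3 to 15.2 FPKM), Top2a (47.2 to 12.9 FPKM) and Mcm2 (24.4 to 10.1 FPKM) stand for mitotic and replication genes. Ccne1, which drives entry into S phase, stood at 23.6 FPKM (18.1 to 29.2) and 21.9 FPKM (16.8 to 27.0), while WT rose from 27.4 to 113 FPKM (85.8 to 139).

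Of 20 macrophage identity and clearance genes tested, 8 fell, 3 rose and 9 were not called. The lectin genes Mgl2 (1483 FPKM, 1111 to 1853, to 194 FPKM, 149 to 239) and Mrc1 (17.3 to 2.24 FPKM), the scavenger receptor gene Cd36 (640 to 159 FPKM) and the fibronectin gene Fn1 (55.7 to 8.56 FPKM) fell. Siglec1, an interferon-induced sialic acid receptor, rose from 0.115 to 6.77 FPKM. The response of 5 of these genes was less negative or more positive than in WT, 3 of them at q under 0.05. With 1 FPKM added, these were 1 larger response and 1 rise. The summed FPKM of 8 macrophage markers was 86.2 in Irf1-/- NT and 88.7 in CDG, against 195 and 162 in WT, and its part was not tested. This sum hides opposite moves of the markers in Irf1-/-. The highest marker was Csf1r in NT (52.8 FPKM) and Fcgr1 in CDG (35.1 FPKM). Of the 8, 2 were called higher and 1 lower, and 6 had negative log2 changes, with a median of -0.44. Among 17 C-type lectin receptors, 5 rose and 6 fell. Clec4e, the Mincle receptor for mycobacterial lipid, rose from 5.66 FPKM (4.04 to 7.28) to 41.5 FPKM (30.5 to 52.6), below WT CDG at 234 FPKM (173 to 295), and Clec4d from 7.85 to 21.9 FPKM, below WT CDG at 107 FPKM. Clec4b1 fell from 66.9 to 6.78 FPKM. Of 17 Fc receptor and complement genes, 7 rose and 2 fell. Cfb rose from 1.11 FPKM (0.676 to 1.55) to 51.1 FPKM (36.4 to 66.0), against 534 FPKM (374 to 695) in WT CDG. Fcgr4 rose from 0.529 to 20.1 FPKM. Fcgr2b, the inhibitory Fc receptor, fell from 183 FPKM (129 to 240) to 45.2 FPKM (31.8 to 59.6) and stood at 69.5 and 74.2 FPKM in WT.

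Transcription factor genes were called in both directions. Of 17 dendritic cell factors tested, 3 rose and 3 fell. Batf2, an interferon-induced AP-1 partner, went from 2.59 FPKM (1.71 to 3.45) to 34.6 FPKM (26.1 to 42.9), while WT stood at 29.1 and 54.5 FPKM. Klf4 (chr4:55527143-55532466, minus strand), a factor of monocyte differentiation, fell from 10.6 FPKM (7.86 to 13.3) to 1.81 FPKM (1.25 to 2.35), while WT rose from 7.58 FPKM (5.63 to 9.52) to 20.8 FPKM (15.6 to 26.1). Cebpa (-1.75) and Bcl6 (-1.17) fell, and Irf4 (0.99), Batf3 (0.79) and Zbtb46 (-0.25) were not called. Cebpb stood at 46.9 and 73.5 FPKM in Irf1-/- and at 69.8 and 240 FPKM in WT, but each of these values lies outside its own interval in the table. Of 16 NF-κB subunit and feedback genes, 5 rose, led by Traf1 (1.80), Nfkbib (1.75) and the inhibitor Tnfaip3 (1.52). A called difference of response from WT was found for 0 of the 16, near the 2.55% larger and 2.48% smaller of all genes. Of 20 AP-1 and immediate early genes, 5 rose, among them Dusp1 (2.19) and Atf3 (1.55), and Myc (-1.55), Egr3 (-2.22) and Jund (-1.13) fell.

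**Figure D4:**
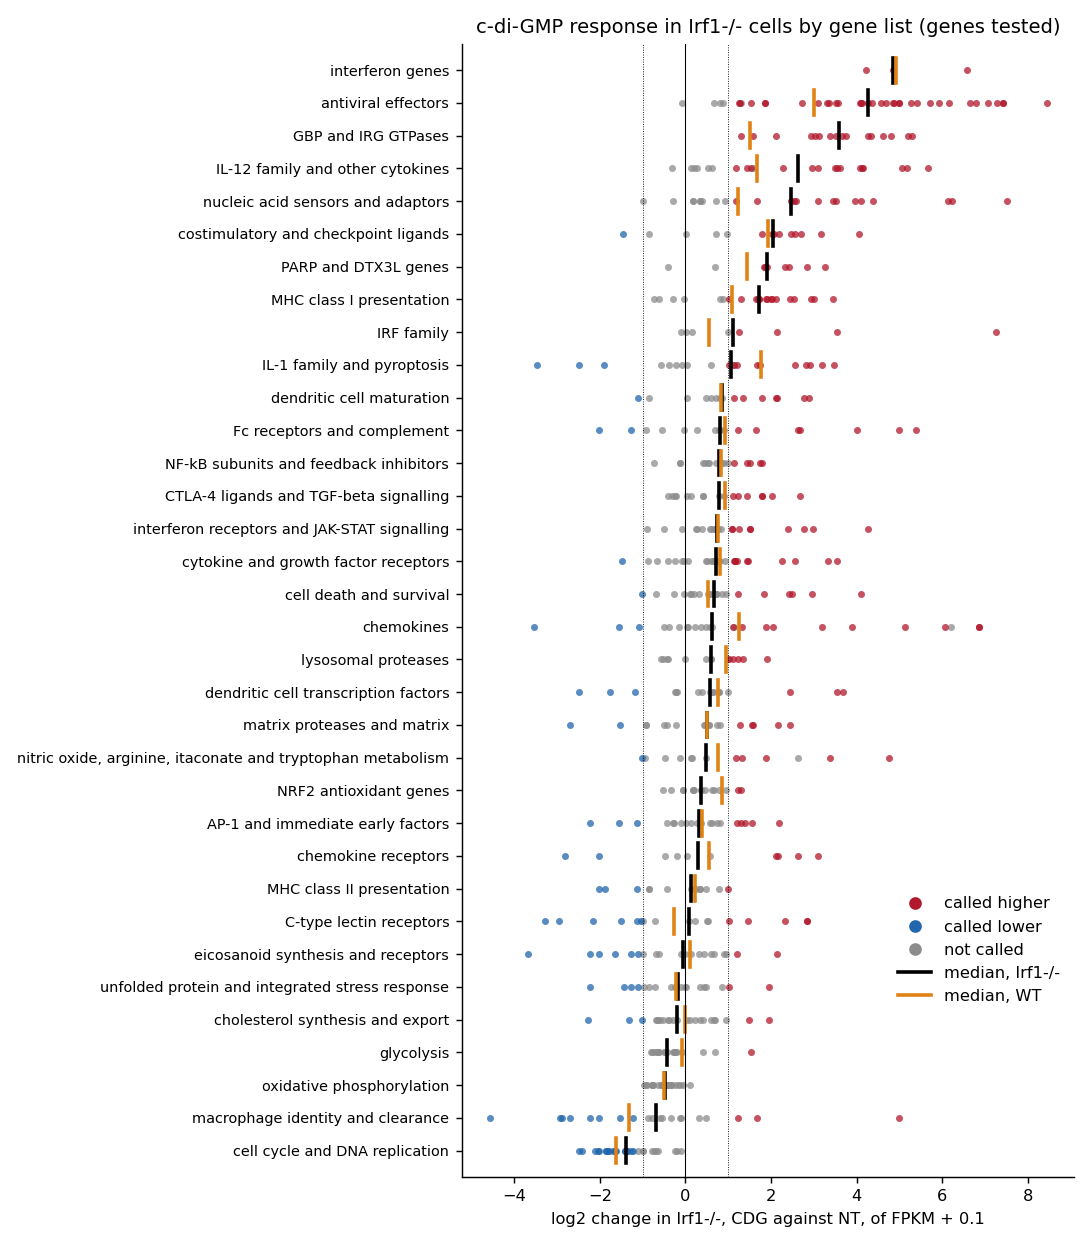
Log2 change of FPKM + 0.1 in Irf1-/- BMDCs, CDG against NT, for the tested members of 34 gene lists on the y axis. Each point is a gene, red where called higher and blue where called lower, black bars are the medians in Irf1-/- and orange bars those in WT. Antiviral effectors (median 4.27) and GBP and IRG genes (3.60) lie far to the right and cell cycle genes (-1.39) to the left.

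Set beside the WT response, 801 genes rose in both genotypes, which is 74.2% of the genes that rose in Irf1-/- and 68.2% of those that rose in WT. For falls, 673 genes were shared, 77.2% and 60.3% of the lists. Across the 10894 genes tested in both, the log2 changes had a correlation of 0.82, which is a description across genes that share libraries and are not independent. Of the 374 genes that rose in WT only by the calls, 339 had the same sign in Irf1-/- and 122 had a smaller response by the interval of the difference. Of the 279 genes that rose in Irf1-/- only by the calls, 62 had a larger response. In Irf3/7-/- BMDCs, 1149 genes rose (10.2%) and 866 fell (7.68%). The genes that rose in all 3 genotypes were 605, and those that fell in all 3 were 468.

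The response itself differed between Irf1-/- and WT for a small share of the genes. Of 11469 genes tested for it, 292 had a larger response (2.55%) and 285 a smaller one (2.48%), where the difference of the log2 changes passed 1 and its interval, combined from all 4 conditions, did not include 0. That interval is lenient, and 155 and 146 of these genes held at q under 0.05. For genes with a larger response, the median level relative to WT was -0.72 on the log2 scale in NT and 0.83 in CDG. For genes with a smaller response it was 0.04 in NT and -1.47 in CDG. These levels make up the difference by which the genes were picked. A shift between NT and CDG therefore follows from the picking, and the medians only describe the genes. By the rule for the 10 largest differences in each direction, most genes were microRNA or small nucleolar RNA genes, such as Mir677, which was listed at 0 in Irf1-/- NT and in WT CDG and had an interval from 0 to 239 FPKM in Irf1-/- CDG. Such short genes are poorly captured by mRNA libraries, and they are 9 of the 292 and 27 of the 285 genes. The lists that follow leave them out, a choice made after the values were seen.

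The largest positive differences then were in Atp6v0c-ps2, Gm12250, Thbs4, Ifi47, Serpina3f, Ccl12, Iigp1, Gbp6, Tgtp2 and Gm4951. Atp6v0c-ps2 is a processed pseudogene with intervals that start at 0 in every condition. Gm12250, an IRG family gene that the annotation lists as a processed pseudogene, went from 0.223 FPKM (0.103 to 0.338) to 12.5 FPKM (9.51 to 15.4), while WT stood at 40.6 and 80.1 FPKM. Thbs4 went from 0.0363 FPKM (0 to 0.0745) to 15.8 FPKM (11.5 to 20.0), above the 1.73 FPKM (1.18 to 2.29) of WT CDG. The monocyte attractant gene Ccl12 went from 0.735 to 29.3 FPKM and met the WT CDG level of 30.1 FPKM, having started below the 8.95 FPKM of WT NT. Serpina3f stood at 3.50 and 40.2 FPKM with overlapping intervals, was not called within Irf1-/- and belongs to a family of near-identical genes.

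The largest negative differences were in Amd1, Krt16, Clic5, Ptgs2, Pcp4, Klf4, Fhod3, 2310014L17Rik, Gm15056 and Ptges. The keratin gene Krt16 (chr11:100246091-100248902, minus strand) went from 0.0678 FPKM (0 to 0.127) to 3.35 FPKM (2.39 to 4.32), while WT reached 133 FPKM (102 to 163) from 0.0523 FPKM. The chloride channel gene Clic5 stood at 0.0167 and 0.0436 FPKM, and WT reached 15.6 FPKM (12.1 to 19.1). The calmodulin regulator gene Pcp4, whose exons overlap Igsf5, rose from 0.351 FPKM (0.0620 to 0.620) to 39.3 FPKM (29.1 to 49.5), and WT reached 317 FPKM (228 to 404). Amd1 rests on a single value of 14.8 FPKM in Irf1-/- NT with an interval from 0 to 31.1. Promoter windows were searched for 8 of these 10 genes. Windows on chromosome 18, where Fhod3 lies, were left out of the search, and no window was found for Krt16. Of the 8 genes, 0 had a window with the ISRE-like letters, which says only that the letters are not in those windows.

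**Figure D5:**
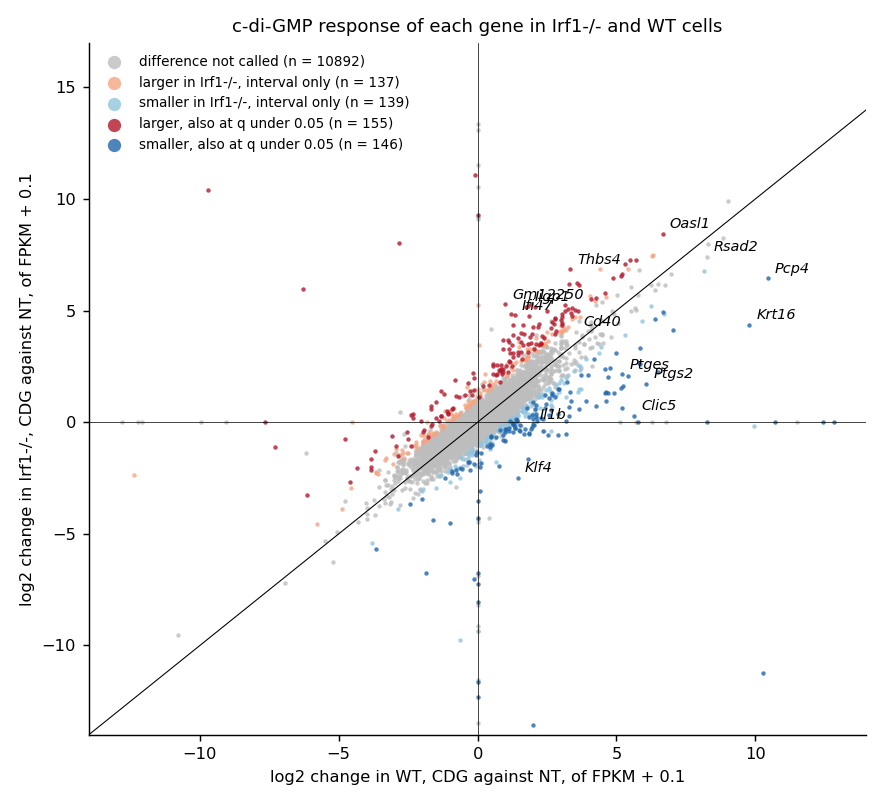
Log2 change of FPKM + 0.1 with c-di-GMP in WT (x axis) and Irf1-/- BMDCs (y axis) for 11469 genes, of which 2 with a change beyond 14 lie outside the axes. Red and blue points are the 155 larger and 146 smaller responses in Irf1-/- that held at q under 0.05, pale points those called by the interval alone, and the line marks equal responses. Ptgs2, Krt16 and Klf4 lie below the line and Ifi47, Iigp1 and Gm12250 above it.

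Dendritic cell genes were present in the Irf1-/- cultures. All 8 dendritic cell markers were at 1 FPKM or more in NT, with a summed FPKM of 4613 in NT and 5792 in CDG, of which Cd74 made up 3565 and 3918 FPKM. Itgax, which encodes CD11c, stood at 369 and 255 FPKM and Zbtb46 at 22.1 and 18.5 FPKM, and Cd209a was at 0.0796 FPKM in CDG. Granulocyte genes were present too. The summed FPKM of 7 neutrophil markers went from 2460 to 1407, with S100a8 highest at 1361 and 725 FPKM, values that lie outside their own intervals, and of 7 B cell markers from 5.63 to 3.62. S100a8 (log2 change -0.91) and S100a9 (-0.67) were not called, and Ltf (-1.78) was the neutrophil marker that was called. Their part in the falls listed above was not tested.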

How the data were processed

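RNA-seq was carried out on BMDCs, and stranded mRNA libraries were sequenced as paired ends. The authors ran Cuffdiff on replicate samples and deposited the result as pooled FPKM of 23356 genes, where each condition has an interval and a status. The submitters' processing notes name Cuffdiff 1.06 and mm9, but 21454 of 21681 loci that could be matched overlap the same gene in GRCm38 (GENCODE M21), whose coordinates are given. The aligner, the annotation and the level of the intervals are not given in the sources used here. Depth cannot be read from FPKM, and the intervals served as the measure of precision. The table holds 3 further FPKM columns that do not match a sample by name, and these were not used, which includes Tmem173-/- BMDCs.

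From the deposited FPKM, log2(FPKM + 0.1) was compared between CDG and NT for genes with at least 1 FPKM in either condition and status OK in both. A gene was called when it changed over 2-fold and its intervals did not overlap. The difference of response between Irf1-/- and WT was called beyond 1 on the log2 scale when its combined interval, each side read as 2 SD, excluded 0. No test over replicates was possible. Some members of the lists are counted but not reported here by name. The calls were tried on simulated data with noise drawn from the same intervals, also read as 2 SD to each side. That checks how the calls were computed and says nothing of the spread between replicates. Named genes were the 12 largest rises and falls with at least 10 FPKM, the 10 largest differences of response in each direction, members of 34 lists and 7 marker lists, the targeted genes and those nearest the threshold. The members and lists were chosen with earlier results of these data known. Promoter windows were available for 80.0% of the genes tested but for 77.5% of those called higher, so a comparison of motif shares between called and other genes is void and is not reported. GAS-like and NF-κB-like motifs were searched as well and are not reported. Alternatives were other pseudocounts, filters and fold thresholds, median centring, fold change alone, and a z from the intervals with Benjamini-Hochberg q under 0.05. Values were computed with pandas 2.3.3, numpy 2.4.6 and scipy 1.17.1 and drawn with matplotlib 3.10.9 in Python 3.11.15.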

Additional observations from a re-analysis of the deposited data

Results flagged for a closer look

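Only 2 genes were called in opposite directions in Irf1-/- and WT BMDCs. Klf4 fell in Irf1-/- BMDCs with a log2 change of -2.49 and rose in WT with 1.45. Fcrlb, an Fc receptor-like gene, fell in Irf1-/- with a log2 change of -1.63, from 4.34 FPKM (2.48 to 5.17) to 1.34 FPKM (0.681 to 1.98), and rose in WT with 1.81, from 0.318 FPKM (0.0929 to 0.526) to 1.37 FPKM (0.681 to 1.89). The CDG levels of Fcrlb overlapped between the genotypes and its NT levels did not. The intervals of both differences of response excluded 0, but across replicates the difference was not tested.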

How the results depend on the processing

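The counts of genes that rose or fell in Irf1-/- BMDCs stayed within 1.5 times of 1080 and 872 under every alternative except a 4-fold threshold, which left 420 and 169, with 270 rises shared with WT. The counts of larger and smaller responses moved more. With 1 FPKM added, 176 responses were larger. Without a filter on low FPKM, 456 were smaller, and with at least 5 FPKM 177 were smaller. A 1.5-fold threshold gave 457 larger responses, and a 4-fold threshold 64 larger and 84 smaller. With the z and q under 0.05, 155 were larger and 146 smaller. The cause was not tested. Apart from median centring, which shifted values by 0.0016, these alternatives cannot change the sign of a log2 change and do not test its direction. Of the 680 named genes tested, 27 lost their call with 1 FPKM added, Gbp8 and Ptges among them. The call was lost by 139 at the 4-fold threshold and by 2 (Mcmbp and Trim14) with median centring. Counts within lists moved with the threshold too: at 4-fold, 3 antiviral effectors and 7 GBP and IRG genes had a larger response and 5 cell cycle genes fell. Leaving out genes with an FPKM outside its own interval, or small RNA genes, was chosen after seeing the data and left 1073 and 1080 rises. No paired analysis was possible because the replicates of each condition were combined in the table, and for the same reason no replicate could be left out in turn.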

Other observations

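Receptors for other cytokines were partly induced in Irf1-/- BMDCs. Of 26 tested, 10 rose and 1 fell (Il27ra, log2 change -1.48). Il2ra, the α chain of the IL-2 receptor, went from 7.31 to 85.9 FPKM, Il15ra, which presents IL-15 to neighbouring cells, from 3.82 to 39.6 FPKM and Il10ra from 24.4 to 144 FPKM. Among the 27 tested for a difference of response from WT, Il2ra was the 1 called, larger by 1.24, which held at q under 0.05. That count is near the 2.55% larger and 2.48% smaller of all genes. Of 9 PARP and DTX3L genes, which modify proteins with ADP-ribose and ubiquitin, 7 rose and 0 fell, with a median log2 change of 1.91 (WT 1.43). The response was larger than in WT for 2 of the 9, 1 of them at q under 0.05, and smaller for 0. Over all 9, the median level relative to WT was -0.95 on the log2 scale in NT and -0.29 in CDG. Parp12 went from 12.3 to 119 FPKM and Parp14 from 15.8 to 113 FPKM. Of 25 cell death and survival genes, 6 rose and 1 fell (Bcl2, -1.01, a call lost with 1 FPKM added). Mlkl, the executioner of necroptosis, went from 9.46 to 53.2 FPKM, Xaf1 from 3.46 to 60.8 FPKM and Cflar, an inhibitor of caspase 8 activation, from 38.8 to 138 FPKM.

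Over all genes tested, 9.67% rose and 7.81% fell, against which the counts of the lists that follow can be read. Of 18 genes of the unfolded protein and integrated stress response, 2 rose, Ddit3 (14.9 to 58.2 FPKM) and Trib3 (log2 change 1.02), and 4 fell, led by Herpud1 (102 to 21.7 FPKM). Of 23 cholesterol genes, 2 rose and 3 fell. The synthesis genes Dhcr7 (15.4 to 3.09 FPKM) and Sqle (-1.31) were among those that fell, and Pmvk (1.48) and the 25-hydroxylase gene Ch25h (5.96 to 23.5 FPKM) rose. Of 14 lysosomal protease genes and inhibitors, 5 rose and 0 fell. Ctsh stood at 73.9 and 55.3 FPKM, against 74.0 and 146 FPKM in WT, a difference of response of -1.40. Of 18 matrix genes, 5 rose and 2 fell. Mmp13, a collagenase gene, rose from 8.51 to 38.4 FPKM, against 4.96 and 7.35 FPKM in WT, and Thbs1, an activator of latent TGF-β, stood at 16.5 and 24.4 FPKM, against 27.7 and 176 FPKM in WT. The differences of response were 1.60 for Mmp13 and -2.11 for Thbs1, and both held at q under 0.05. Of 17 genes of CTLA-4 ligands and TGF-β signalling, 7 rose and 0 fell, Cd80 and Cd86 among them, and 0 had a called difference from WT, near the 2.55% larger and 2.48% smaller of all genes. Skil, a repressor of SMAD transcription, went from 11.0 to 38 FPKM.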
